A study of Mus musculus with 12 samples.

Results

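The combination of GW1516 and AICAR was compared with vehicle in quadriceps muscle, using the 3 arrays of mice given both drugs and the 3 arrays of mice given vehicle, 6 of the 12 arrays of the series. Members were chosen by the sample titles alone. All mice were C57Bl/6J and were treated for 6 days. The combination group received GW1516 at 5 mg/kg/day together with AICAR at 250 mg/kg/day, and the other 2 groups, used here for direct comparison, received one of these drugs alone at the same dose. The labels give no age, sex or route, and the name of the vehicle is not stated. Each array received RNA pooled from 3 mice, so it shows the mean of a pool and not the spread between animals, and the labels do not say whether pools shared mice. The p-values below therefore measure the spread between pools.

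GW1516 is a synthetic agonist of PPARδ, a nuclear receptor that pairs with RXR and drives genes of fatty acid uptake, storage and mitochondrial oxidation in muscle. AICAR is taken up by cells and phosphorylated to an AMP mimic that activates AMPK, the kinase that senses low cellular energy and favours fuel burning over synthesis. Both pathways are known from endurance exercise and fasting, and AMPK can act on PPARδ-driven transcription, which makes the joint treatment of interest.

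The tissue label was borne out by its defining markers: all 15 skeletal muscle markers lay above the filter on dim probe sets, and their summed signal was 276300 to 285200 in the vehicle arrays and 307800 to 309600 in the combination arrays. That rise depended on the scaling. The median log2 difference of these markers was 0.12 with 12 above 0, but -0.015 with 6 above 0 under quantile normalization. Every array had been scaled to the same trimmed mean of 200, and the median signal ran from 48.0 to 49.8 in vehicle and from 50.6 to 51.9 in combination arrays. Over the 12771 genes tested, pairs of combination arrays correlated at 0.954 to 0.957 and pairs of vehicle arrays at 0.966 to 0.968, so the combination pools were less alike. The median standard deviation of a gene over 3 arrays was 0.197 in the combination and 0.165 in vehicle, on the log2 scale. On the second principal component, which held 12.9% of the variance, combination replicates 2 and 3 scored 0.41 and 0.65 and replicate 1 scored -0.15. The second array of the GW1516 group stood apart on the first component with a score of -0.81, and it enters the test against vehicle only through the shared estimate of the spread.

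Genes called higher with both drugs included Ucp3, Acadl, Foxo1, Fbp2 and 4 genes of the carnitine shuttle and fatty acid activation. Those called lower included Pfkfb3, a gene of glycolytic control, and a pair of clock repressors. Several of these calls were lost when single arrays were left out, as given below. Of 12771 genes tested, 33 were called at an adjusted p under 0.05 by limma (0.258%), 20 higher (0.157%) and 13 lower (0.102%). In 8 of them the difference was at least 1 on the log2 scale, 6 upwards and 2 downwards, while 2.89% of all genes tested differed by that much in either direction. In all 33 the 3 combination arrays lay on one side of the 3 vehicle arrays, beside 8.9% of all genes with the combination wholly above and 9.69% with it wholly below. The 33 were chosen by the test on these same arrays, so neither their sizes nor the lack of overlap adds evidence for them. The same 33 genes kept their direction under quantile normalization and under median centring, but median centring, which moved the median of all genes from -0.005 to -0.083, gave 8 higher and 22 lower calls in place of 20 and 13.

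**Figure D1:**
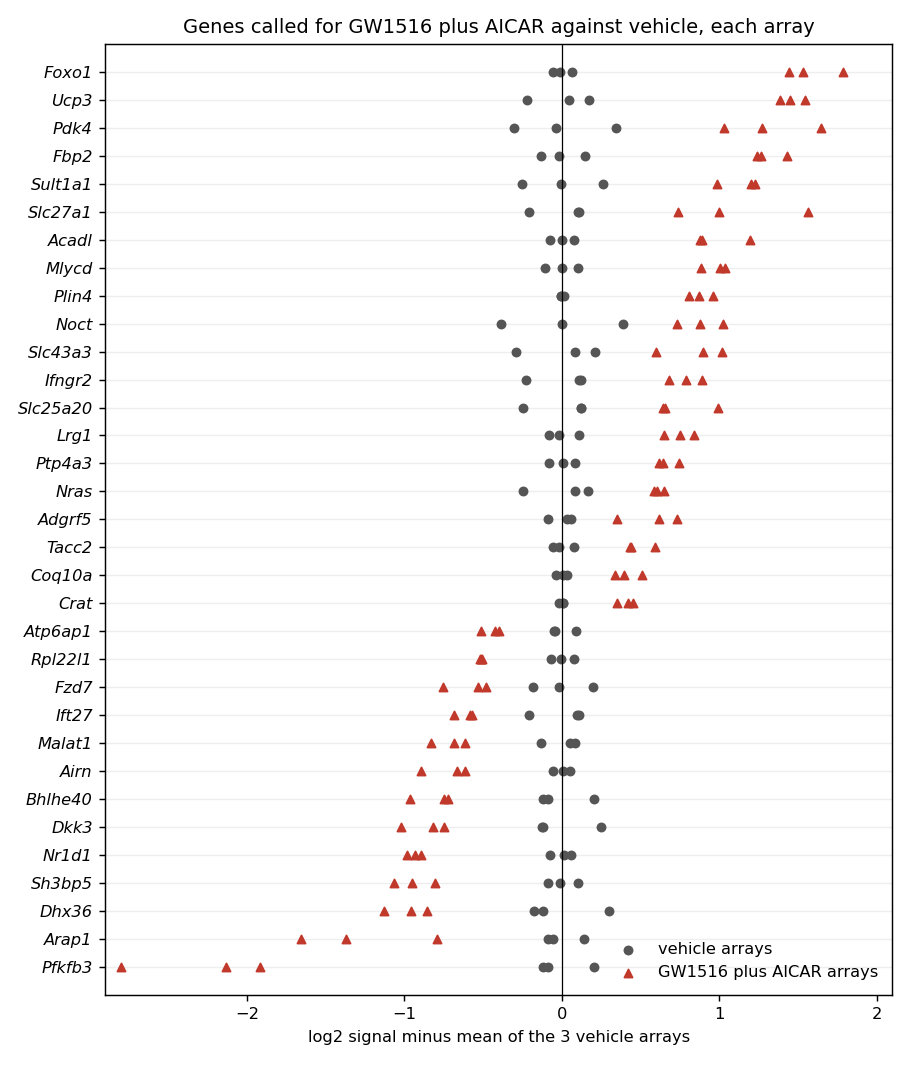
Each row is a gene called for the combination against vehicle, ordered by log2 difference, and each point is 1 array, as log2 signal minus the mean of the 3 vehicle arrays (circles vehicle, triangles GW1516 plus AICAR). In each of the 33 rows, chosen by the test on these same arrays, the circles and triangles do not overlap. The spread of the triangles is widest for Arap1, Pfkfb3 and Slc27a1.

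The number of calls leaned on single arrays. Leaving out vehicle replicates 1, 2 and 3 in turn gave 10, 10 and 18 calls, and leaving out combination replicates 1, 2 and 3 gave 39, 12 and 14. Arrays outside the comparison also moved the count through the shared spread: 19, 13 and 18 genes were called without AICAR replicates 1, 2 and 3, and 95, all of the 33 among them, without GW1516 replicate 2. Fbp2, Pfkfb3, Ucp3, Plin4, Acadl, Foxo1 and Sult1a1 were called in all 12 omissions. Ptp4a3, Rpl22l1 and Slc25a20 were called in 11, and 20 of the 33 in 6 or fewer. Across the 11 other settings, Fbp2 and Pfkfb3 were called in all, and Ucp3, Plin4, Acadl, Foxo1 and Sult1a1 in 10. Without the variance trend, Fbp2 and Pfkfb3 were the 2 genes called.

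**Figure D2:**
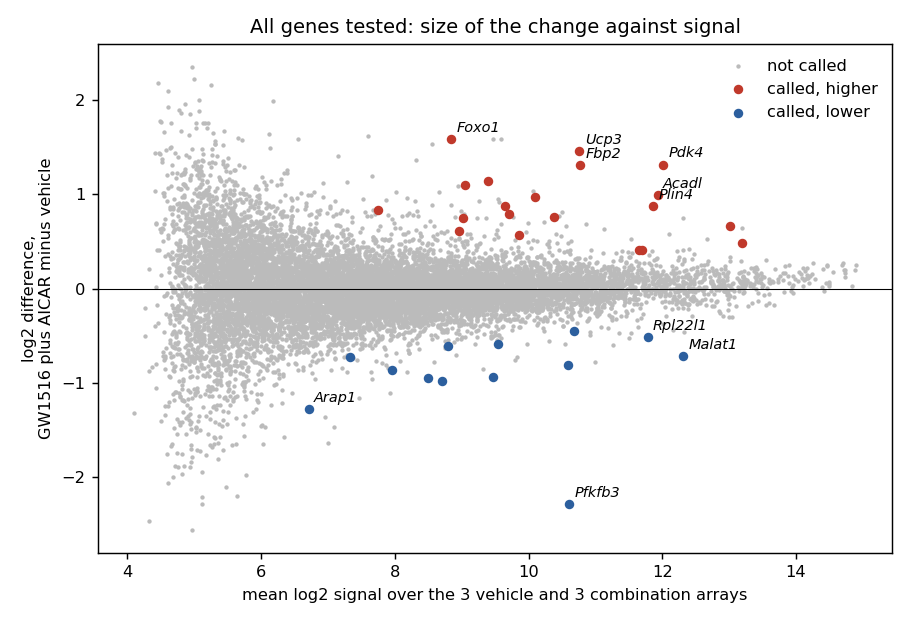
Log2 difference, combination minus vehicle, against mean log2 signal over the 6 arrays for the 12771 genes tested, with the 20 genes called higher in red and the 13 called lower in blue. Dim genes on the left scatter widely without being called, and Pfkfb3 at -2.29 and Foxo1 at 1.59 are the largest called differences in each direction.

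Among genes of mitochondrial fat use, Ucp3, an inner membrane carrier of the uncoupling protein family, changed most. Its signal was 1178, 895 and 1079 in the vehicle arrays and 2722, 2854 and 3050 in the combination arrays. The groups were far apart, and the log2 difference was 1.46 ± 0.16 (SE, n = 3 against 3 arrays, 2.75-fold, limma adjusted p = 0.000996). A second probe set of Ucp3 differed by 1.49. Acadl, the long-chain acyl-CoA dehydrogenase of the first step of beta-oxidation, stood at 2926, 2773 and 2625 in vehicle and at 6344, 5102 and 5134 with both drugs, a rise of 0.99 ± 0.11 (adjusted p = 0.00127). Vehicle arrays of Acadl were close together, and all combination arrays lay well above them.

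The carnitine shuttle and fatty acid activation were represented by 4 called genes. Slc25a20, the carnitine-acylcarnitine carrier, rose by 0.76 ± 0.11 (adjusted p = 0.0116), from 1116, 1118 and 867 to 1599, 1620 and 2043. Mlycd, which destroys malonyl-CoA, the inhibitor of carnitine palmitoyltransferase 1, rose by 0.97 ± 0.18 (adjusted p = 0.0467), from 836, 723 and 780 to 1435, 1595 and 1560. Slc27a1, a fatty acid transport protein with acyl-CoA synthetase activity, rose by 1.10 ± 0.21 (adjusted p = 0.0477), from 390, 389 and 313 to 1070, 723 and 603. The 3 combination arrays of Slc27a1 differed widely, with replicate 1 well above the others. Crat, the carnitine acetyltransferase that buffers acetyl-CoA, rose by 0.41 ± 0.077 (adjusted p = 0.0477), and its arrays were tight at 2845 to 2892 in vehicle and 3667 to 3925 in the combination. Of the 12 omissions, Slc25a20 was called in 11, Slc27a1 in 4, and Mlycd and Crat in 3 each. Cpt1b, the muscle form of carnitine palmitoyltransferase 1, was not analysed here.

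Over the list of the carnitine shuttle and fatty acid activation, 11 of 13 genes could be tested, 4 rose and 0 fell. The median difference was 0.39, beside -0.005 for all genes tested. Of all genes tested, 49.1% lay above 0, 0.157% were called higher and 0.102% lower. With median centring 1 of the 4 calls, Slc25a20, was kept, and 8 of the 11 lay above 0. Over mitochondrial beta-oxidation 20 of 20 were tested and 1, Acadl, rose, with 19 above 0 and a median of 0.21 (16 above 0 and 0.13 with median centring). Next by p-value came Eci2, an enoyl-CoA isomerase for unsaturated chains, at 0.50 ± 0.10 (adjusted p = 0.0705), Etfb, a subunit of the flavoprotein that takes electrons from the dehydrogenases, at 0.40 ± 0.094 (adjusted p = 0.129), and Acads, the short-chain dehydrogenase, at 0.35 ± 0.11 (adjusted p = 0.26). None of these 3 passed. The groups did not overlap in any of them, but the 3 were picked by lowest p. Of all genes tested, 8.9% had the combination wholly above vehicle. Without GW1516 replicate 2 Eci2 passed (adjusted p = 0.00765), and over all 23 alternatives its adjusted p ran from 0.00765 to 0.238. Per array, the median of the beta-oxidation list was 0.386, 0.054 and 0.264 in combination replicates 1, 2 and 3. It was 0.064, -0.001 and -0.058 in vehicle replicates 1, 2 and 3, so the groups overlapped.

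Genes that PPARs are known to drive were tested for 24 of 30 listed members. Of these, 5 rose (Ucp3, Plin4, Slc25a20, Pdk4 and Mlycd) and 0 fell. All 24 measured differences were above 0 with a median of 0.47. Of all genes tested, 0.157% were called higher, 0.102% lower, and 49.1% lay above 0, shares that also apply to the lists below. All lists were chosen with earlier results of these data known, so their counts are given as description. With median centring 20 of the 24 lay above 0. The count called was 4 with quantile normalization, where Pdk4 missed (adjusted p = 0.0653), and 3 with median centring, where Pdk4 and Mlycd missed (adjusted p = 0.0723 and 0.0863). Taken per array relative to the mean of vehicle, the median of the list was 0.83, 0.29 and 0.34 for combination replicates 1, 2 and 3, all above the vehicle arrays at 0.12, 0.02 and -0.15. Pdk4, the kinase that shuts off pyruvate dehydrogenase and so spares glucose, had signals of 3320, 2120 and 2554 in vehicle and 8196, 5353 and 6321 in the combination, and rose by 1.32 ± 0.24 (adjusted p = 0.0466). Its vehicle arrays were spread out, and it was called in 3 of 12 omissions. Angptl4, a secreted inhibitor of lipoprotein lipase, had 177, 71.0 and 107 in vehicle and 427, 281 and 327 in the combination. The groups did not overlap, as in the 8.9% of all genes with the combination wholly above. Its difference of 1.62 ± 0.36 missed the threshold (adjusted p = 0.097). Acot2, a mitochondrial acyl-CoA thioesterase that was singled out after its values were seen, differed by 1.37 ± 0.28 (adjusted p = 0.0705), and without GW1516 replicate 2 it passed (adjusted p = 0.000654, range over alternatives 0.000654 to 0.256).

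Lipid droplet and uptake genes were tested for 18 of 18 members, of which 2 rose, Plin4 and Slc27a1, and 0 fell. Over all genes tested 0.157% were called higher and 49.1% lay above 0. All 18 lay above 0 with a median of 0.47, and 14 lay above 0 with median centring, which called 1, Plin4. Plin4, a perilipin that coats lipid droplets, had the steadiest rise of these: 2761, 2726 and 2731 in vehicle against 4789, 5318 and 5018, a difference of 0.88 ± 0.097 (adjusted p = 0.000996). Plin5, the perilipin that tethers droplets to mitochondria, ranged from 142 to 222 in vehicle and from 252 to 569 in the combination, a difference of 1.02 ± 0.31 that did not pass (adjusted p = 0.238). Fabp3, the muscle fatty acid binding protein, differed by 0.53 ± 0.14 (adjusted p = 0.168), the scavenger receptor and fatty acid importer Cd36 by 0.47 and lipoprotein lipase, Lpl, by 0.42 (adjusted p = 0.478 and 0.498). For Cd36 and Lpl the groups overlapped, with combination replicate 1 the highest array of the 6 in both.

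Fatty acid and triglyceride synthesis had 0 of 18 tested members called, with 17 above 0 and a median of 0.44. Fasn, fatty acid synthase, stood at 1229, 610 and 552 in vehicle and at 3018, 1586 and 751 in the combination, and its difference of 1.04 ± 0.60 did not pass (adjusted p = 0.556). Scd1, the stearoyl-CoA desaturase, differed by 0.75 ± 0.55 (adjusted p = 0.654). The steadier members were Lpin1, a phosphatidate phosphatase and coactivator, at 0.40 ± 0.084 (adjusted p = 0.071), the malic enzyme gene Me1 at 0.30 (adjusted p = 0.191) and Acacb, which makes malonyl-CoA at mitochondria, at 0.39 (adjusted p = 0.235). In these 3, picked by lowest p, the groups did not overlap, beside 8.9% of all genes with the combination wholly above. Without GW1516 replicate 2 Lpin1 passed (adjusted p = 0.00611, range over alternatives 0.00611 to 0.272).

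Fat cell markers moved with some of the same arrays. All 12 tested of 16 adipocyte markers lay above 0 with a median of 0.73 and 0 called. Relative to the mean of vehicle, their median was 1.39, 0.66 and -0.08 in combination replicates 1, 2 and 3 and 0.53, -0.32 and -0.17 in vehicle replicates 1, 2 and 3. The summed signal of 13 markers was 17700 to 26260 in vehicle and 18800 to 34300 in the combination, and 1 marker, Tshr, lay below the filter level in all 6 arrays. The groups overlapped, and replicate 1 was the highest of each. Some markers are shared with the lists above: Fabp4 and Cidea with the PPAR targets, and Cidec and Lipe with lipid droplets and uptake. Fasn, Scd1, Cd36 and Lpl are also made by fat cells, and the part of fat cells in the lipid differences was not tested. In whole muscle, a change in the number of cells of a type and a change in RNA per cell cannot be told apart.

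**Figure D3:**
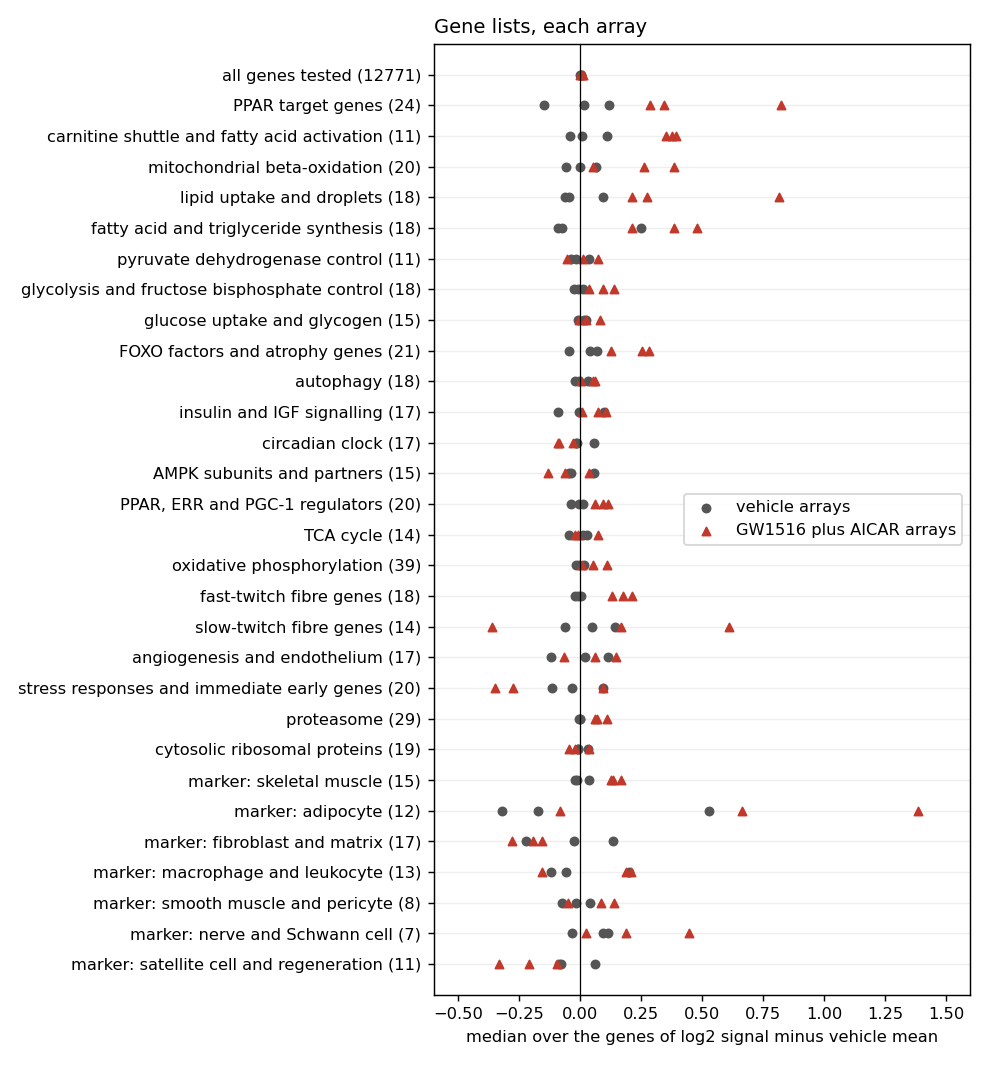
For each gene list (number of genes tested in brackets) the median over genes of log2 signal minus the vehicle mean is shown for each array, circles for vehicle and triangles for GW1516 plus AICAR, with all 12771 genes in the top row. Triangles lie above circles for PPAR targets (0.29 to 0.83), the carnitine shuttle (0.35 to 0.39) and fast-twitch fibre genes (0.13 to 0.21). They also do for other lists, among them lipid uptake and droplets (0.21 to 0.82) and the proteasome (0.06 to 0.11), which had 0 calls. Adipocyte markers spread from -0.08 to 1.39.

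Glucose metabolism held the largest fall among the called genes. Pfkfb3 encodes the enzyme that makes fructose 2,6-bisphosphate, the strongest activator of glycolysis and an inhibitor of fructose bisphosphatase. Its signal was 3954, 3226 and 3151 in vehicle and 907, 492 and 779 in the combination. The difference was -2.29 ± 0.22, 4.87-fold lower (adjusted p = 0.000432), and its second probe set differed by -1.33. Fbp2, the muscle fructose bisphosphatase that runs the opposite reaction of glycolysis, rose 2.48-fold, by 1.31 ± 0.13 (adjusted p = 0.000432), from 1228, 1010 and 1096 to 2622, 2982 and 2661. Both were called in each of the 11 other settings and 12 omissions. They were the only members called in the list of glycolysis and fructose bisphosphate control, 1 higher and 1 lower of 18 tested, and the list's median was 0.11 (-0.003 with quantile normalization). The related isoform Pfkfb4 differed by 0.32 (adjusted p = 0.25) and hexokinase 2, Hk2, by 0.19 (adjusted p = 0.296).

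Ucp3, Fbp2 and Pfkfb3 are shown with the 250 bases before their RefSeq start sites (GRCm38, 5′ to 3′ on the gene's strand), since they are the strongest changes of fat burning and of the fructose bisphosphate step. Capitals mark the nuclear receptor half-site AGGTCA in Ucp3 and the E-box CACGTG in the other genes. For Ucp3 the window is chr7:100472741-100472990 on the plus strand, with half-sites beginning 149 and 44 bases before the start. For Fbp2 it is chr13:62858401-62858650 on the minus strand, with the E-box 42 bases before the start. For Pfkfb3, which has 2 start sites in RefSeq, it is chr2:11502091-11502340 on the minus strand, with the E-box 53 bases before, while the other window, chr2:11553930-11554179, holds none of the motifs searched.
Ucp3: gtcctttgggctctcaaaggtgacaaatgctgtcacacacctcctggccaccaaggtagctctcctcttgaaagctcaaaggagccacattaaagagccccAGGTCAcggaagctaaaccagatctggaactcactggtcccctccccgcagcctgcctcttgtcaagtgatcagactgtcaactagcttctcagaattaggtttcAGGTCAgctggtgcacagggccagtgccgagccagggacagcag
Fbp2: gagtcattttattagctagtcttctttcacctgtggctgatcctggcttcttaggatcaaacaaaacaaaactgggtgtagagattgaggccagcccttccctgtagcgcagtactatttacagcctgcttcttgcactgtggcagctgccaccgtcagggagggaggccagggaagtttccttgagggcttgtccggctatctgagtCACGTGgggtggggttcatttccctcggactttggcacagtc
Pfkfb3: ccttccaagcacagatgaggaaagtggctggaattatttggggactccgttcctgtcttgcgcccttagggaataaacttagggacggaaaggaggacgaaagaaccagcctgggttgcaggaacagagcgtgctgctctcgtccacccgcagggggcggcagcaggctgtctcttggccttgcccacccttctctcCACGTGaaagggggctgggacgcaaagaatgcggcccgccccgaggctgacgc

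These matches are descriptions of letters only. AGGTCA, on either strand, was present in 2 of the 22 promoters found for 17 of the 20 genes called higher (9.09%), in 2 of the 15 found for 11 of the 13 called lower (13.3%), in 11.4% of the 13242 promoters of genes tested and in 14.0% of all 32851 RefSeq promoters of this length. CACGTG, which reads the same on both strands, was in 3 of 22 (13.6%), 1 of 15 (6.67%), 8.04% and 6.02% of the same sets. The direct repeat of AGGTCA with 1 base between, the textbook PPAR element, which itself contains the half-site, was in 0 promoters of called genes and in 0.0335% of all. The FOXO motif GTAAACA, on either strand, was in 1 of 22 (Nras), in 0 of 15 and in 3.17% of all. The shares in called genes were thus those of a few promoters, and for AGGTCA and CACGTG in the lower genes the side on which they lay depended on the background used.

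Pyruvate dehydrogenase control had 1 of 11 tested members called, Pdk4, and 0 with quantile normalization or median centring. The phosphatase gene Pdp1, which reactivates the complex, differed by -0.32 (adjusted p = 0.337) and Pdk2 by 0.19 (adjusted p = 0.389). The list's median was -0.02. In glucose uptake and glycogen 0 of 15 tested members passed, with a median of -0.02. Nearest to the threshold were Ppp1r3c, a glycogen-targeting subunit, at 0.64 (adjusted p = 0.209), the glucose transporter gene Slc2a4 at 0.22 (adjusted p = 0.287) and Ugp2, which makes UDP-glucose, at 0.29 (adjusted p = 0.263).

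Foxo1, a transcription factor of fasting that is known to induce Pdk4 and atrophy genes, had the largest rise of any called gene. It stood at 262, 254 and 276 in vehicle and at 763, 910 and 717 in the combination, a difference of 1.59 ± 0.20 (3.00-fold, adjusted p = 0.00405). Its other 2 probe sets past the filter differed by 1.30 and 1.33. The vehicle arrays were within a narrow band, and the lowest combination array was far above it. Of the 21 FOXO and atrophy genes tested, Foxo1 was the 1 called, with 17 above 0 and a median of 0.23 (16 and 0.15 with median centring).

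The ubiquitin ligases of muscle wasting did not share the size of the Foxo1 change. Fbxo32, also called atrogin-1, stood at 1995, 1839 and 1574 in vehicle and at 2140, 1953 and 1749 in the combination, a difference of 0.11 ± 0.48 (adjusted p = 0.953). Trim63, also called MuRF1, stood at 2319, 2288 and 2149 and at 2276, 2263 and 2071, a difference of -0.03 ± 0.38 (adjusted p = 0.984). For both genes the groups overlapped. Their standard errors came mainly from GW1516 replicate 2, whose signals were 11253 and 10734, and without that array they were 0.16 and 0.094, with differences of 0.11 and -0.03. Fkbp5, a glucocorticoid-induced chaperone gene, was 381, 478 and 475 in vehicle and 1241, 1421 and 1318 in the combination. Its difference of 1.58 ± 0.32 just missed the threshold (adjusted p = 0.0637) and passed without GW1516 replicate 2 (adjusted p = 0.000654, range over alternatives 0.000174 to 0.236). Cebpb, a transcription factor induced in fasting and by glucocorticoids, differed by 0.63 ± 0.14 (adjusted p = 0.104), Klf15 by 0.32 (adjusted p = 0.681) and Foxo4 by 0.23 (adjusted p = 0.451).

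Of the circadian clock, 17 of 19 members were tested, 0 rose and 2 fell, with a median of 0.00 on the log2 scale. Over all genes tested 0.157% were called higher and 0.102% lower. Nr1d1, the REV-ERBα repressor, fell by 0.94 ± 0.16 (adjusted p = 0.0346), from 1016, 985 and 928 to 524, 493 and 511. Bhlhe40, the DEC1 repressor, fell by 0.81 ± 0.15 (adjusted p = 0.0451), from 2360, 1921 and 1885 to 1219, 1047 and 1236. Combination arrays were close together in both genes, but Nr1d1 was called in 5 of 12 omissions and Bhlhe40 in 3. Ciart, a further repressor of the loop, differed by -0.78 ± 0.19 (adjusted p = 0.139), Bhlhe41 by -0.51 (adjusted p = 0.543) and Clock by -0.48 (adjusted p = 0.325), while Per2 differed by 0.44 (adjusted p = 0.33), Per1 by 0.12 and Nr1d2 by -0.03 (adjusted p = 0.813 and 0.921). Noct, or nocturnin, a rhythmically expressed phosphatase outside this list, rose by 0.88 ± 0.16 (adjusted p = 0.0451). Its vehicle signals of 451, 592 and 773 were spread out, and the combination signals were 1088, 1201 and 980. The hour at which muscles were taken is not given in the sources used here.

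The remaining genes that rose have varied roles. Sult1a1, a phenol sulfotransferase, rose by 1.14 ± 0.16 (adjusted p = 0.00881), from 454, 544 and 381 to 1065, 902 and 1045. Ptp4a3, a protein tyrosine phosphatase of the PRL family, rose by 0.67 ± 0.096 (adjusted p = 0.00957), from 6156, 6904 and 6549 to 10954, 10172 and 10004. Lrg1, a secreted leucine-rich glycoprotein, rose by 0.75 (adjusted p = 0.0295) and Ifngr2, a subunit of the interferon gamma receptor, by 0.79 (adjusted p = 0.0346), although a second probe set of Ifngr2 differed by -0.15. Slc43a3, a membrane transporter, rose by 0.84, the small GTPase gene Nras by 0.61 and the adhesion receptor gene Adgrf5, found in endothelium, by 0.57 (adjusted p = 0.0466, 0.0467 and 0.0477). The other 2 probe sets of Nras lay between -0.02 and 0.12, so its rise rests on the brightest. Tacc2, a coiled-coil protein gene, rose by 0.49 and Coq10a, a coenzyme Q binding protein gene, by 0.41 (adjusted p = 0.0459 for each), and a second probe set of Coq10a differed by -0.74.

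Genes that fell outside the clock and glycolysis included a pair of non-coding RNAs. Malat1, a nuclear RNA, fell by 0.71 ± 0.11 (adjusted p = 0.0116), from 6872, 6727 and 5913 to 4237, 4032 and 3642, with its other 6 probe sets between -0.92 and 0.07. Airn, transcribed antisense to Igf2r, fell by 0.73 (adjusted p = 0.0451), but its other 4 probe sets ran from -0.55 to 0.83. Rpl22l1, a paralogue of a ribosomal protein, fell by 0.51 ± 0.072 (adjusted p = 0.00881), and its combination arrays were nearly equal at 2931, 2960 and 2939 against 3999, 4181 and 4433. Arap1, a regulator of Arf GTPases, fell by 1.28 ± 0.23 (adjusted p = 0.0459) with combination arrays spread over 93.8, 51.5 and 62.8. The RNA helicase gene Dhx36 fell by 0.98 (adjusted p = 0.0322) and Sh3bp5, a JNK-binding protein gene, by 0.94 (adjusted p = 0.0259). For both, other probe sets lay between -0.09 and 0.003. Dkk3, a secreted protein of the Dickkopf family, fell by 0.86 (adjusted p = 0.0346) and the Frizzled receptor gene Fzd7 by 0.59 (adjusted p = 0.0466). A second probe set differed by less, -0.35 for Dkk3 and -0.29 for Fzd7. Ift27, a gene of ciliary transport, fell by 0.61 and Atp6ap1, an accessory subunit of the vacuolar proton pump, by 0.44 (adjusted p = 0.0467 and 0.0466).

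The drug targets themselves were not called. Ppard stood at 254, 245 and 247 in vehicle and at 260, 222 and 291 in the combination, a difference of 0.04 ± 0.16 (adjusted p = 0.942). Prkaa2, the main catalytic AMPK subunit of muscle, differed by 0.20 ± 0.11 (adjusted p = 0.529), and Prkaa1, which was dim, by 0.03 ± 0.50 (adjusted p = 0.992). Of 15 AMPK subunits and partners 0 were called, with Prkag1 at 0.44 and the fast-muscle subunit Prkag3 at -0.41 (adjusted p = 0.45 and 0.502). Of 20 PPAR, ERR and PGC-1 regulators 0 were called. Ppargc1a, the coactivator of mitochondrial biogenesis, differed by -0.04 ± 0.10 (adjusted p = 0.92), its relative Ppargc1b by -0.40 and the corepressor Nrip1 by 0.41 (adjusted p = 0.337 and 0.27), Ppara by 0.22 (adjusted p = 0.86) and Pparg, which is also an adipocyte marker, by 1.05 ± 0.54 (adjusted p = 0.5).

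Respiratory and contractile genes had 0 calls. Oxidative phosphorylation had 30 of 39 members above 0 with a median of 0.05, and 15 above 0 with a median of -0.03 under median centring. TCA cycle genes had a median of 0.03, or -0.05 under median centring. Fast-twitch fibre genes had 16 of 18 above 0 with a median of 0.17, which was 0.02 under quantile normalization and 0.09 under median centring. Nearest the threshold were very bright genes: Atp2a1, the fast calcium pump, went from 27590, 28206 and 28396 to 31859, 34024 and 34276, a difference of 0.25 (adjusted p = 0.337), Myh4, the IIb myosin heavy chain, differed by 0.28 and Tnnc2, fast troponin C, by 0.24 (adjusted p = 0.256 and 0.337). Slow-twitch genes had a median of 0.19 with wide scatter, from -0.36 to 0.61 over the combination arrays. Myh2, the IIa myosin heavy chain, was 2757, 5631 and 2981 in vehicle and 11654, 1952 and 6820 in the combination, so pools of the same group differed more than the groups (0.58 ± 0.63, adjusted p = 0.774), and Myh1 differed by 0.04 (adjusted p = 0.957). Myh7, the slow myosin heavy chain, lay below the filter.

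Stress response and immediate early genes had 15 of 20 below 0 with a median of -0.19 and 0 called. Nearest the threshold was Ier2 at -0.75 ± 0.18 (adjusted p = 0.137), followed by the co-chaperone gene Dnajb1 at -0.54 (adjusted p = 0.209) and Junb at -1.64 ± 0.52 (adjusted p = 0.262). Combination replicate 3 was at 0.09 for this list against -0.35 and -0.28 for replicates 1 and 2. In angiogenesis and endothelium 1 of 17, Adgrf5, rose and 0 fell, but 0 were called with quantile normalization (Adgrf5 adjusted p = 0.0501) or median centring (0.116, with 6 of 17 above 0). Ramp2 differed by 0.45, Tek by -0.37 and Angpt1 by -0.64 (adjusted p = 0.186, 0.384 and 0.451). In insulin and IGF signalling 0 of 17 passed, with Irs2 at -0.65 and Grb14 at -0.46 (adjusted p = 0.368 and 0.346). Proteasome genes had a median of 0.07 (-0.01 with median centring), autophagy genes 0.05 (-0.03) and cytosolic ribosomal proteins -0.005, with Rpl22l1 the 1 member called.

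Markers of other cell types had 0 calls. Fibroblast and matrix markers had 16 of 17 below 0 with a median of -0.19, and their summed signal was 36390 to 49060 in vehicle and 36570 to 38010 in the combination. Macrophage and leukocyte markers summed to 3253 to 4243 in vehicle and 2925 to 3778 in the combination, with overlap. Smooth muscle and pericyte markers summed to 5398 to 6109 in vehicle and 5831 to 6468 in the combination, also with overlap, when Des was left out. Among the last, Pdgfrb, a pericyte and fibroblast receptor gene, differed by -0.64 ± 0.13 (adjusted p = 0.0632). Nerve and Schwann cell markers had a median of 0.25 over 7 genes and satellite cell markers -0.39 over 11. Red blood cell markers had 2 of 8 tested, and these differed in opposite directions, Alas2 by 1.49 and Slc4a1 by -1.27. The summed signal of 4 was 90.7 to 166 in vehicle and 183 to 228 in the combination, and it includes Hba-a1 and Epb42, which lay below the filter. Satellite cell markers without Des summed to 1992 to 2131 in vehicle and 1468 to 1933 in the combination, and nerve markers to 1261 to 1436 and 1420 to 1775. With Des, a bright gene that the skeletal muscle list also holds, the sums were 15500 to 15970 and 17590 to 18180 for smooth muscle and 11690 to 12530 and 12640 to 13950 for satellite cells, so that the direction turned for the latter. Leaving out Des was chosen after the values were seen. Myod1, which the skeletal muscle list also holds, stayed in the satellite cell sum. Its signals were 538, 549 and 658 in vehicle and 272, 501 and 637 in the combination. S100a9 of the leukocyte list, Lmod1 of smooth muscle, Nefm of nerve and Myf5 of satellite cells lay below the filter level in all 6 arrays. The part of these cells in the differences above was not tested.

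Direct comparison with each drug alone showed where the combination differed. Against AICAR, 4 genes were called by limma, 4 higher (0.0313% of genes tested) and 0 lower, with 935 at an unadjusted p under 0.05 (7.32%). Fbp2 was higher by 1.20 ± 0.13 (adjusted p = 0.00217), with AICAR arrays at 1241, 1254 and 1094, near the vehicle level. Slc25a20 was higher by 0.84 ± 0.11 (adjusted p = 0.023), Ucp3 by 1.04 ± 0.16 and Acadl by 0.75 ± 0.11 (adjusted p = 0.0461 for each). These 4 act in fat burning and at the fructose bisphosphate step, and they had each risen against vehicle. Both comparisons used the same combination arrays, so the rise against vehicle adds no separate evidence. The count was 1 without AICAR replicate 1 or 3 or combination replicate 1 or 2, 2 without AICAR replicate 2, combination replicate 3 or any vehicle array, and 10 without GW1516 replicate 2.

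Against GW1516, limma called 0 genes (0%), and 1326 had an unadjusted p under 0.05 (10.4%). Smallest in p-value among the genes named here were Ifngr2 at 0.82 ± 0.14 and Pfkfb3 at -1.32 ± 0.22 (adjusted p = 0.193 for each). For Pfkfb3 the 95% interval of that difference was -1.80 to -0.85, and the GW1516 arrays stood at 2122, 1907 and 1342, between the vehicle and combination arrays. For Ucp3 the difference from GW1516 alone was 0.11, with an interval of -0.24 to 0.45, for Acadl 0.07 (-0.18 to 0.31), for Pdk4 -0.03 (-0.56 to 0.49) and for Foxo1 0.74 (0.30 to 1.17, adjusted p = 0.293). The count was 10 without GW1516 replicate 1 and 2 without GW1516 replicate 3.

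**Figure D4:**
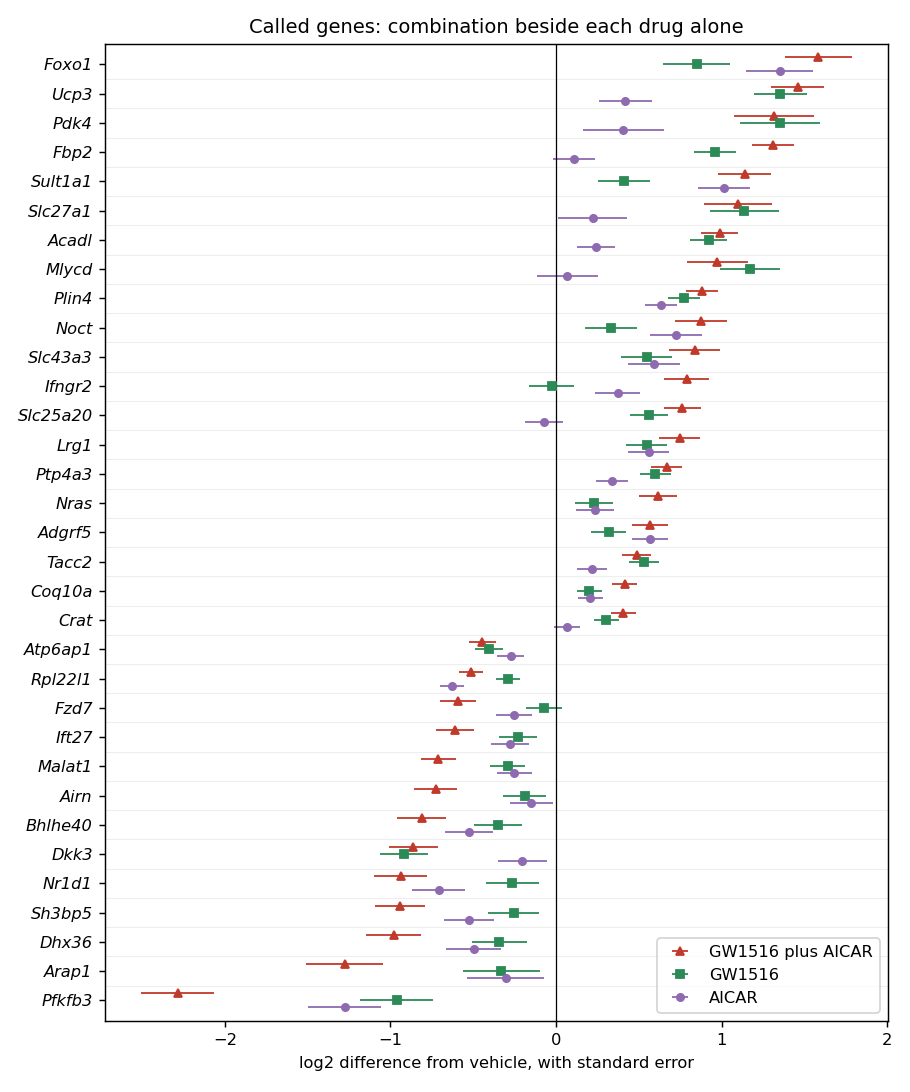
For the 33 called genes the log2 difference from vehicle with its standard error is shown for the combination (triangles), GW1516 alone (squares) and AICAR alone (circles). All 3 share the vehicle arrays and the genes were chosen on the triangles; Ucp3, Pdk4 and Acadl have squares near the triangles, Foxo1 and Sult1a1 have circles near them, and Pfkfb3 has both between 0 and the triangle.

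The single-drug values beside the combination share its vehicle arrays and are given as description. For Ucp3 the difference from vehicle was 0.42 with AICAR, 1.35 with GW1516 and 1.46 with both, and for Fbp2 it was 0.11, 0.96 and 1.31. For Foxo1 it was 1.35, 0.85 and 1.59, for Sult1a1 1.01, 0.41 and 1.14, and for Nr1d1 -0.71, -0.26 and -0.94. For Pfkfb3 it was -1.28, -0.96 and -2.29, and for Malat1 -0.25, -0.29 and -0.71. The interaction, which asks whether the combined change differs from the sum of the single changes on the log2 scale, called 0 genes by limma (0%), with 848 at an unadjusted p under 0.05 (6.64%). It was -0.05 ± 0.31 for Pfkfb3 (adjusted p = 0.984), -0.53 ± 0.14 for Plin4 and 0.41 ± 0.10 for Rpl22l1 (adjusted p = 0.703 for each). For Lpin1, which was not called against vehicle, it was -0.56 ± 0.12 (adjusted p = 0.703).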

How the data were processed

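Expression was measured on 12 Affymetrix mouse arrays, 3 per group. The deposited intensity values are MAS5 signals on a linear scale, per the submitters' processing notes, and leaving out 2% of values at each end gave every array a mean of 200. The sources used here state no MAS5 version. Of 45101 probe sets, 64 controls were dropped. A platform annotation from 2016 gave 34945 of the rest a single gene symbol, 932 several and 9160 none. Gene IDs of 34741 of these matched RefSeq, and 0 symbols differed.

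Values under 1 (3531 of 540444) were raised to 1 before taking log2. Probe sets in the dimmest 40%, by mean over the arrays (signal under 28.2), were excluded. The brightest remaining probe set stood for its gene, which left 12771 genes. All 12 arrays entered one limma model (version 3.58.1, R 4.3.3) with group means and a variance trend, on 8 residual and 5.91 prior degrees of freedom. Tests were two-sided, and p-values were adjusted by Benjamini-Hochberg over all genes and called under 0.05. The number of arrays limits the precision, and the median standard error was 0.188.

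The comparison, gene lists and tests were chosen with earlier results of these data known. The genes named were all those called (where 40 or fewer), a set list of PPAR, AMPK, clock, atrophy and fibre genes, and at most 4 genes of lowest p per list over 30 lists. Alternatives varied the normalization, floor, filter, probe set rule, variance model, arrays fitted, array weights, replicate term and threshold, and each array was omitted once. Scripts were tested on simulated data. Promoters came from RefSeq (GRCm38). Python 3.11.15 and matplotlib 3.10.9 drew the figures.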

Additional observations from a re-analysis of the deposited data

How the results depend on the processing

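The number of genes called for the combination against vehicle was 33. It became 18 when dim probe sets were kept, 2 without the variance trend, 92 with array weights, 75 at an adjusted p under 0.10, and 10 to 95 with 1 array left out. Deviations of same-numbered arrays from their group means correlated between -0.108 and 0.069. Between combination and vehicle arrays of the same number the correlations were 0.005 to 0.069. Of these 6 arrays, 5 correlated best with their own number in the other group. These values do not settle whether replicate numbers pair the arrays. With the replicate block 16 genes were called, 15 of them among the 33. Against AICAR the count of 4 became 2 with quantile normalization, median centring, no filter or averaged probe sets, 1 with the replicate block, and 1 to 10 with 1 array left out. Against GW1516 the count of 0 became 1 without the trend, and 0 to 10 with 1 array left out. The interaction count was 0 in every setting run. The cause of these changes was not tested.

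Coq10a reversed to -0.16 when its probe sets were averaged, one of which has the opposite sign. The other reversals were in uncalled genes near 0. Myh1 was -0.014, -0.034 and -0.030 with quantile normalization, median centring and array weights, Prkaa1 -0.054 and -0.051 with the first 2 of these, and Ppard -0.034 with median centring. With averaged probe sets Ppara was -0.013 and Ppargc1a 0.11. With 1 array left out the ranges were Myh1 from -0.10 to 0.25, Nr1d2 from -0.11 to 0.020, Per1 from -0.051 to 0.26, Ppara from -0.10 to 0.56, Ppard from -0.048 to 0.15, Ppargc1a from -0.074 to 0.020, Prkaa1 from -0.20 to 0.46 and Trim63 from -0.066 to 0.012.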
